A study of Mus musculus with 6 samples.

Results

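Imprinted growth genes are genes of the embryo that are transcribed mainly from the copy inherited from 1 parent. The 10 members described here are Igf2, H19, Dlk1, Meg3, Peg3, Cdkn1c, Grb10, Plagl1, Mest and Nnat. They were chosen by name, with earlier results of these data known, as highly expressed imprinted genes of the fetal pancreas. Each was found under that symbol. They are 10 of 23337 gene symbols counted, and all 10 were among the 14687 genes that passed the filter on low counts. RNA came from pancreas of NMRI mouse embryos of age E13.5. The control group was wildtype. The submitters call the mutant group Prox1-nullyzygous and write its genotype as Prox1 GFPCre/D, where Prox1 encodes a homeobox transcription factor and the D is not explained. There were 3 pools in each group, each pool held 5 to 6 organs of 1 genotype, and 1 mRNA library was sequenced per pool.

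Imprinted genes carry marks on their DNA, mainly methylation of control regions, that are set differently in egg and sperm and then kept in the cells of the embryo. Many of them act on growth, and as a broad tendency genes expressed from the paternal copy promote growth while genes expressed from the maternal copy restrain it. They lie in clusters that share a control region, and their RNA is abundant in fetal mesenchyme and in other growing tissue and falls after birth. In this set Igf2, Dlk1, Peg3, Plagl1, Mest and Nnat are expressed from the paternal copy, and H19, Meg3, Cdkn1c and Grb10 mainly from the maternal copy. The read counts used here do not separate the parental copies, and DNA methylation was not measured.

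The libraries held 16060424 to 17633867 counted reads, and 17332 to 17473 symbols had at least 1 read. Levels are given as CPM, reads scaled to a common library size, and a gene is called where the Benjamini-Hochberg adjusted p of the edgeR quasi-likelihood test over all 14687 genes was under 0.05. 1 pool of each group, control pool 3 with 0.526 CPM and mutant pool 1 with 0.126 CPM, had almost no Xist RNA, while the remaining 4 pools ranged from 2014 to 2812 CPM. Ddx3y, a gene on chromosome Y, was highest in those same pools, at 110.6 (control pool 3) and 126.8 CPM (mutant pool 1). Its level in the remaining 4 was lower, from 23.1 to 45.7 CPM. The sex of the embryos in each pool was not tested. Reads of Prox1 numbered 1764, 1687 and 1824 in control pools 1 to 3, and the mutant pools had 1330, 1774 and 1602. The Prox1 groups overlapped, with a log2 difference of -0.17 (SE 0.0743) and an adjusted p of 0.235, so its RNA level did not check the genotype labels. The p-values measure the spread between pools.

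The sequence before an annotated start of the 3 called members is shown first, with its CG pairs, where DNA methylation falls. Whether these stretches are part of an imprinting control region was not tested. The sequences are from RefSeq on GRCm38.p6, on the strand of the gene and 5′ to 3′, and capitals mark the CG pairs. They lie within the 250 bases before an annotated start. For Plagl1 the stretch is chr10:13090582-13090690, on the plus strand, which is the 109 bases of the window outside annotated exons. For Mest it is chr6:30737800-30738049, and for Dlk1 chr12:109452573-109452822, both on the plus strand and both outside annotated exons.
Plagl1: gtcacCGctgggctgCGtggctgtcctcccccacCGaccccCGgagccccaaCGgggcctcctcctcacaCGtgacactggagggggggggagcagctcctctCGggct
Mest: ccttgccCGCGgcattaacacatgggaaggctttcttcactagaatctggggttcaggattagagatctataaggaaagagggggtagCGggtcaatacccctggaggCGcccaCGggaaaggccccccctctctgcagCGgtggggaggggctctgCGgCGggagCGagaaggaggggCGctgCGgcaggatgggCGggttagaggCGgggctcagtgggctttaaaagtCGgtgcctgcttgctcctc
Dlk1: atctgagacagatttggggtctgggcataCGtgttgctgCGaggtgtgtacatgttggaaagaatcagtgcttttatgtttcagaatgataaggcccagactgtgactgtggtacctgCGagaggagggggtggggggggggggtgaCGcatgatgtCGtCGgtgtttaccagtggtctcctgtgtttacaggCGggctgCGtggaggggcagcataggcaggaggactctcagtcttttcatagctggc

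Mest has 3 annotated start windows, and the one shown is the one free of annotated exons. The whole 250-base windows of the starts shown held 19 CG pairs for Plagl1, 14 for Mest and 8 for Dlk1. The other 2 windows of Mest held 7 and 14, and 46.3% of all windows held at least 7. The median over 32851 windows of 27025 genes was 6, and 19.7%, 29.4% and 43.0% of all windows held at least as many as these 3. A start window was matched by symbol for 8 of the 10 members, all but H19 and Cdkn1c, with 15 windows in all. The TATA box letters TATAAA, searched on both strands, were in 1 of the 15 member windows, of Meg3, against 12.4% of all windows. The CCAAT box letters CCAAT were in 3 of the 15, 1 each of Peg3, Igf2 and Meg3, against 33.9% of all windows. The letters GGGGCCCC are the core of the motif bound by the zinc finger protein that Plagl1 encodes. They were in 1 of the 15 member windows, that of Peg3, against 0.889% of all windows. A longer form of this motif, also searched, was in 0 of the 15, against 0.07% of all windows. Matches of this kind describe the letters and not a bound site.

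4 members, Mest, H19, Igf2 and Meg3, also hold microRNA genes, whose products pair with other transcripts through the seed. RefSeq places 9 mature microRNAs inside them, and the 9 seeds, bases 2 to 8, all differ. Those of the called member Mest and of the 2 members with the highest counts are shown, 5′ to 3′ with the seed in capitals. The pair of Mest lies in an intron at chr6:30741314-30741336 and chr6:30741354-30741375, that of H19 in an exon, and that of Igf2 in an intron.
mmu-miR-335-5p: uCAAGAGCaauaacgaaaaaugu
mmu-miR-335-3p: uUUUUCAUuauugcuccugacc
mmu-miR-675-5p: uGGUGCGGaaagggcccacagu
mmu-miR-675-3p: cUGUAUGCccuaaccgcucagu
mmu-miR-483-5p: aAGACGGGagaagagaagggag
mmu-miR-483-3p: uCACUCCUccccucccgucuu

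The symbol of the Mest microRNA gene, Mir335, had 1 to 7 reads per library and that of the Igf2 microRNA gene, Mir483, had 5 to 16. Mir675 in H19 and Mir770 and Mir1906-1 in Meg3 had 0 reads in every library. Such mRNA libraries do not capture mature microRNAs, so these counts give no level for them.

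The 10 members together took 2.46 to 2.58% of all counted reads in the controls and 2.59 to 2.82% in the mutants. H19 had more reads than any other gene in each of the 6 libraries. Igf2 ranked 2 or 3. At the other end, Nnat had the fewest reads of the members.

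Levels of different genes were compared per kb of annotated exon. In the controls H19 stood at 2895 ± 92.9 CPM per kb (mean ± SD, n = 3), which was above Igf2 at 743 ± 22.6 with no overlap. Mest followed at 551 ± 10.2 and Cdkn1c at 537 ± 16.9, and these neighbours overlapped. Next came Dlk1 at 304 ± 9.56 and Grb10 at 299 ± 11.9 CPM per kb, which also overlapped. Plagl1 stood below them at 259.9 ± 18.9. Peg3 at 169.8 ± 17.1 and Nnat at 133 ± 28.5 CPM per kb overlapped in turn, and Meg3 was lowest at 64.4 ± 8.89. The order of the means was the same in the mutants, where the overlapping neighbours were Mest with Cdkn1c, Grb10 with Plagl1, and Peg3 with Nnat. Dividing by the longest transcript instead put Grb10 above Plagl1 and Plagl1 above Dlk1, so the order of these 3 rests on the length used.

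**Figure D1:**
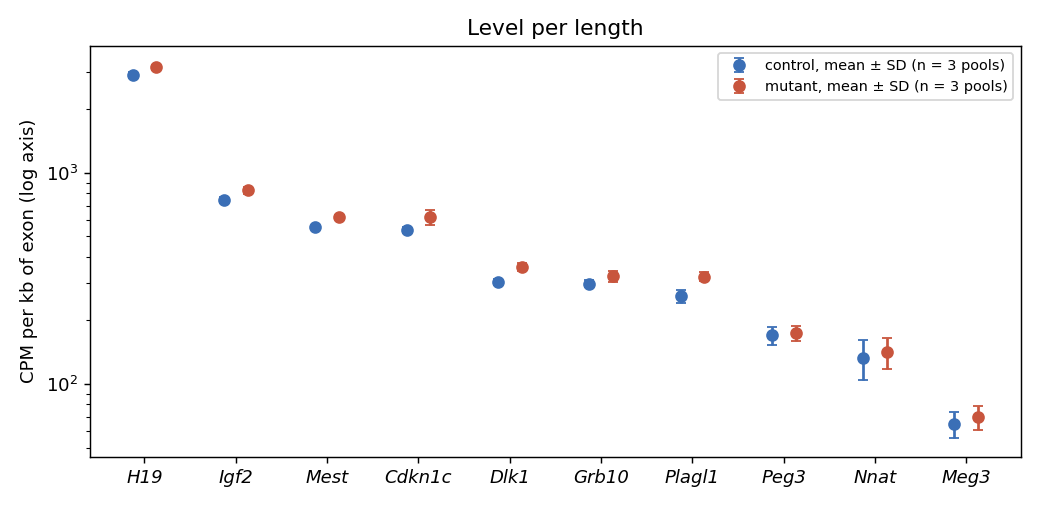
Mean level per kb of annotated exon (log axis, CPM per kb) of the 10 genes, with bars of 1 SD over 3 control pools (blue) and 3 mutant pools (red). H19 lies far above the rest at 2895 CPM per kb in controls, and Meg3 is lowest at 64.4.

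The comparison of mutant with control pools asks how the RNA of these genes differs when Prox1 is disrupted. 3 of the 10 members, Plagl1, Dlk1 and Mest, were called higher in the mutants, by 1.12 to 1.24 fold. Plagl1 encodes a zinc finger transcription factor, Dlk1 a Notch family ligand and Mest a hydrolase-like protein. No member was called lower. Over all genes tested, 3.67% were called higher and 4.28% lower. All 10 log2 fold changes were above 0, with a median of 0.14. Of the 14687 genes tested, 7373 were above 0, with a median of 0.00. The members were chosen with earlier results of these data known. Of 35 tested imprinted genes of other clusters, 18 were above 0. For 6 members, Plagl1, Dlk1, Mest, Cdkn1c, Igf2 and H19, every mutant pool lay above every control pool, which held for 13.1% of all genes. In whole organs, a change in the number of cells of a type and a change in RNA per cell cannot be told apart.

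**Figure D2:**
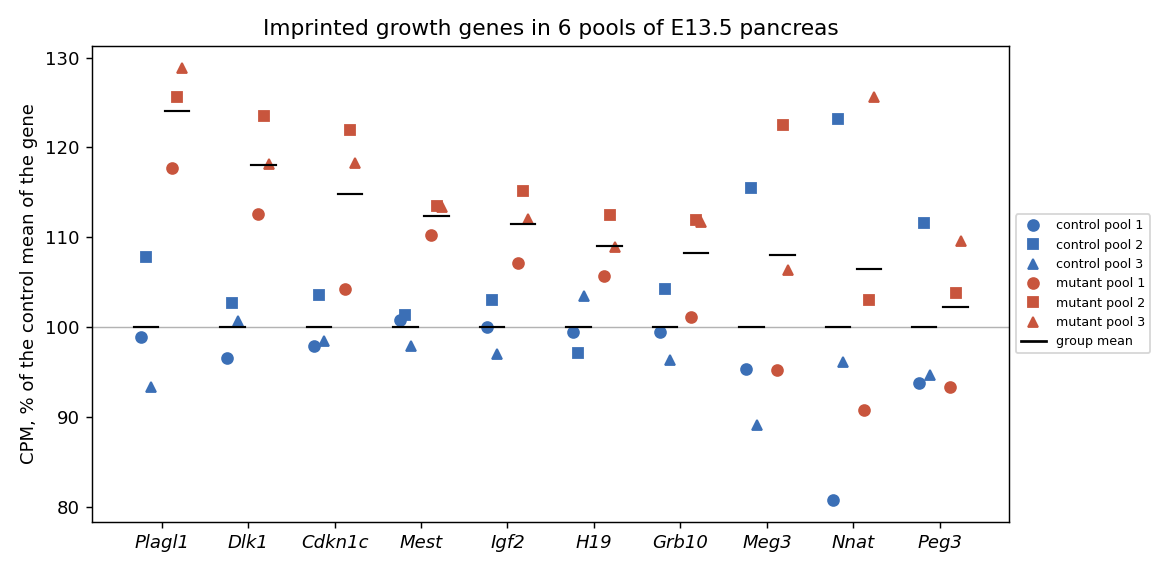
CPM of each gene in each pool as a percent of that gene's control mean, with control pools in blue, mutant pools in red, marker shape for the pool number and black lines at group means. All mutant pools lie above all control pools for Plagl1, Dlk1, Cdkn1c, Mest, Igf2 and H19, while the groups overlap for Grb10, Meg3, Nnat and Peg3.

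Among the secreted and membrane-bound ligands, Igf2 encodes the main insulin-like growth factor of the fetus, on the minus strand at chr7:142650766-142666816. It stood at 4251, 4381 and 4122 CPM in control pools 1 to 3 and at 4554, 4895 and 4765 CPM in mutant pools 1 to 3. The groups did not overlap, with mutant pool 1 nearest to the controls. Its log2 fold change was 0.16 (SE 0.0467, 95% interval 0.05 to 0.26), and with an adjusted p of 0.0823 it was not called by edgeR. DESeq2 gave Igf2 an adjusted p of 0.0145 and limma voom one of 0.0414, both under the threshold.

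Dlk1 encodes a membrane protein of the Notch ligand family that restrains differentiation, on the plus strand at chr12:109452823-109463336. Its levels were 1658, 1764 and 1730.1 CPM in control pools 1 to 3 and 1934, 2122 and 2029 CPM in the mutant pools. The lowest mutant pool was above the highest control pool. From 1718 ± 54.1 to 2028 ± 93.8 CPM (mean ± SD, n = 3 each), Dlk1 rose by 0.24 on the log2 scale (SE 0.0513, 95% interval 0.12 to 0.36, edgeR adjusted p = 0.0232).

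2 members encode zinc finger proteins. Plagl1, at chr10:13060504-13131694 on the plus strand, encodes a transcription factor that acts on the cell cycle and on other imprinted genes. It stood at 2009, 2189.5 and 1897 CPM in control pools 1 to 3 and at 2391, 2552 and 2619 CPM in mutant pools 1 to 3. The groups did not overlap, and Plagl1 had the largest log2 fold change of the 10. From 2032 ± 147 to 2521 ± 117 CPM (n = 3 each), it rose by 0.31 (SE 0.0628, 95% interval 0.17 to 0.45, edgeR adjusted p = 0.0184).

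Peg3, at chr7:6703892-6730431 on the minus strand, encodes a large zinc finger protein that is also abundant in embryonic mesoderm. Control pools 1 to 3 had 2122, 2525 and 2141 CPM of Peg3, and mutant pools 1 to 3 had 2113, 2349.9 and 2479 CPM. The groups overlapped, since control pool 2 was the highest of the 6 and mutant pool 1 the lowest. The log2 fold change was 0.03 (SE 0.0819, 95% interval -0.15 to 0.22, edgeR adjusted p = 0.888). The interval holds both a small fall and a rise of the size seen for Mest.

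The other 2 protein-coding members of the paternal copy are a hydrolase-like protein and a small membrane protein. Mest, at chr6:30723547-30748465 on the plus strand, encodes a protein of the alpha/beta hydrolase fold and marks embryonic mesoderm. It stood at 2191, 2203 and 2128 CPM in control pools 1 to 3 and at 2396, 2466 and 2466 CPM in mutant pools 1 to 3. The groups did not overlap, and the pools of each group lay close together. From 2174 ± 40.1 to 2443 ± 40.4 CPM (n = 3 each), Mest rose by 0.17 (SE 0.0425, 95% interval 0.07 to 0.26, edgeR adjusted p = 0.0459), near the threshold. Its gene overlaps Copg2 on the opposite strand, and the strand setting of the counting is not given in the sources used here, but Copg2 had only 926 to 1100 reads per library.

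Nnat encodes neuronatin, a small membrane protein of the endoplasmic reticulum that is known from brain and from islet beta cells, at chr2:157560078-157562522 on the plus strand. It had 195.9, 299 and 233 CPM in control pools 1 to 3 and 220.3, 249.99 and 305 CPM in mutant pools 1 to 3. The groups overlapped over most of their range. The log2 fold change was 0.09 (SE 0.154, 95% interval -0.26 to 0.44, edgeR adjusted p = 0.817), the widest interval of the 10. Nnat lies within Blcap on the opposite strand, which had 835 to 981 reads per library.

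Of the members that restrain growth, Cdkn1c encodes p57, an inhibitor of cyclin-dependent kinases that stops cells from dividing. Its gene is at chr7:143458339-143461050 on the minus strand. Control pools 1 to 3 had 1073, 1136 and 1079 CPM and mutant pools 1 to 3 had 1142, 1336 and 1296 CPM. The groups did not overlap, but mutant pool 1 was close to control pool 2. The log2 fold change of Cdkn1c was 0.20 (SE 0.0641, 95% interval 0.05 to 0.34), and at an adjusted p of 0.105 it was not called by edgeR. DESeq2 gave it an adjusted p of 0.0165.

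Grb10 encodes an adaptor protein that binds the insulin and IGF receptors and dampens their signal, at chr11:11930508-12038683 on the minus strand. It stood at 2699, 2831 and 2616 CPM in control pools 1 to 3 and at 2746, 3038 and 3032 CPM in mutant pools 1 to 3. Mutant pools 2 and 3 were above all controls, while mutant pool 1 fell among them. The log2 fold change was 0.11 (SE 0.0557, 95% interval -0.01 to 0.24, edgeR adjusted p = 0.292).

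The members that encode no protein are H19 and Meg3, the maternal partners of Igf2 and Dlk1. H19, at chr7:142575529-142578143 on the minus strand, had 7083, 6917 and 7369 CPM in control pools 1 to 3 and 7529, 8014 and 7759.7 CPM in mutant pools 1 to 3. All mutant pools were above all control pools. Its log2 fold change was 0.13 (SE 0.0445, 95% interval 0.02 to 0.23), and it was not called at an edgeR adjusted p of 0.139.

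Meg3, at chr12:109541001-109571726 on the plus strand, stood at 1111, 1346 and 1038 CPM in control pools 1 to 3 and at 1109, 1427 and 1239 CPM in mutant pools 1 to 3. The groups overlapped, and pool 2 was the highest in both. The log2 fold change was 0.11 (SE 0.112, 95% interval -0.14 to 0.36, edgeR adjusted p = 0.651).

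By parental copy, 3 of the 6 paternally expressed members and 0 of the 4 maternally expressed members were called higher. The share over all genes was 3.67%. The uncalled maternal Cdkn1c, at a log2 fold change of 0.20, lay above the called paternal Mest, at 0.17. The median log2 fold change was 0.16 in the first group and 0.12 in the second, and the difference between them was not tested. Of the 4 maternally expressed members 2, H19 and Cdkn1c, were higher at an unadjusted edgeR p under 0.05, as were 10.9% of all genes. DESeq2 called 1 of the 4 and limma voom 0, where 4.29% and 3.56% of all genes were called higher.

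2 pairs of members share a control region, so the balance within a pair was read as the ratio of reads in the same library. Igf2 and H19 lie 72.6 kb apart. Igf2 had 0.6002, 0.633 and 0.559 reads per read of H19 in control pools 1 to 3 and 0.605, 0.611 and 0.614 in mutant pools 1 to 3. The mutant ratios lay inside the range of the controls. The log2 ratio differed by 0.03 between groups, with a two-sided exact permutation p of 0.7, where 20 splits allow no p below 0.1.

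Dlk1 and Meg3 lie 77.7 kb apart. Dlk1 had 1.49, 1.31 and 1.67 reads per read of Meg3 in control pools 1 to 3 and 1.74, 1.49 and 1.64 in mutant pools 1 to 3. These ranges overlapped as well. The log2 ratio differed by 0.13, with an exact permutation p of 0.5, and both p-values were 0.7 after Benjamini-Hochberg adjustment over the 2 ratios.

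Pools of a group kept a similar order over the members. Mutant pool 1 had the lowest level of its group for 10 of 10 members, and control pool 2 the highest of its group for 9, all but H19. Mutant pool 2 was highest among mutants for 7 members and mutant pool 3 for the other 3. The members share these libraries, so the counts describe the pools. Counting error, 0.271 to 1.75% of the level, was smaller for each member than the coefficient of variation between pools, which ran from 1.65% for Mest to 21.4% for Nnat.

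Calls on the members changed when single pools were left out. Without control pool 1, without mutant pool 2 or without mutant pool 3, 0 members were called by edgeR, and 1.90%, 1.95% and 2.91% of all genes were called higher. In the same 3 fits, 6, 3 and 4 members were higher at an unadjusted edgeR p under 0.05, as were 9.34%, 8.66% and 9.86% of all genes. 3 members were called without control pool 2, where 4.69% of all genes were called higher, and 2, Plagl1 and Dlk1, without control pool 3, where it was 2.57%. Without mutant pool 1, Plagl1, Dlk1 and Cdkn1c were called, against 2.39% of all genes. The Plagl1 log2 fold change stayed between 0.26 and 0.36 over these 6 fits, that of Dlk1 between 0.21 and 0.27 and that of Mest between 0.15 and 0.18.

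Left without the 2 pools nearly devoid of Xist, 1 in each group, edgeR called Plagl1 (0.30, adjusted p = 0.0221), Dlk1 (0.28, adjusted p = 0.0257) and Cdkn1c (0.25, adjusted p = 0.0355), against 2.14% of all genes called higher. Among the other tools, DESeq2 called 5 members, adding Igf2 and Cdkn1c, against 4.29% of all genes, and limma voom 4, adding Igf2, against 3.56%.

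**Figure D3:**
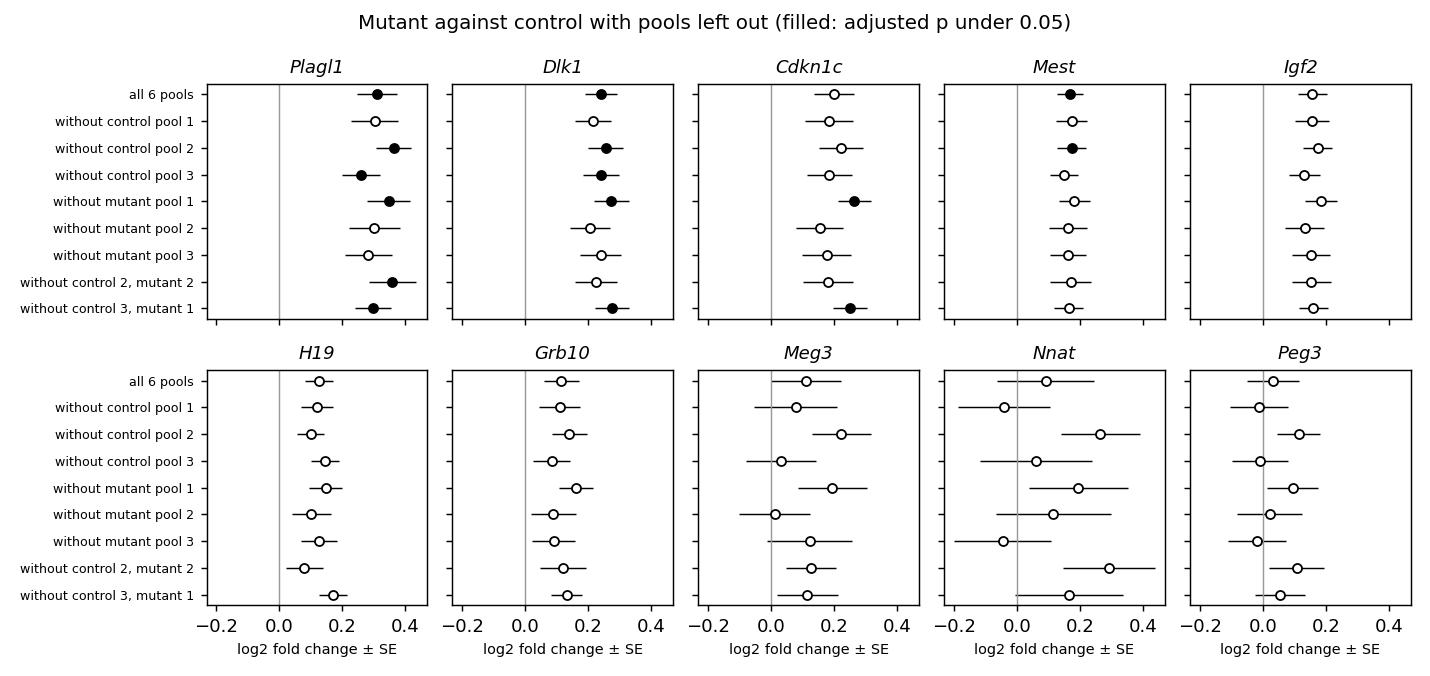
Log2 fold change, mutant minus control, with bars of 1 SE for each gene in the edgeR fit of all 6 pools and in fits with 1 pool or 1 pool of each group left out. Filled points have an adjusted p under 0.05. Plagl1 stays between 0.26 and 0.36 in every fit shown, while Nnat and Peg3 fall on both sides of 0.

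Cell type markers moved with the genotype in the same libraries. The summed level of 12 mesenchyme markers, such as the collagen genes Col1a1 and Col3a1, was 8983 to 9252 CPM in controls and 10027 to 11432 CPM in mutants, with no overlap. 2 of the 12, Col1a1 and Barx1, were called higher, against 3.67% of all genes, and 10 were not called. The markers went both ways, with 10 of 12 log2 fold changes above 0 and the lowest at -0.55. At an unadjusted edgeR p under 0.05, 7 were higher and 1 lower, where all genes gave 10.9% and 10.2%. None was at 0 in all libraries. The pool with the highest mesenchyme sum was mutant pool 1, the pool in which each member was lowest among mutants. Endothelial markers summed to 599 to 677 CPM in controls and 678 to 867 CPM in mutants, and 1 of 8 was called higher.

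Epithelial and endocrine markers went the other way. The 14 endocrine markers summed to 2037 to 2697 CPM in controls and 1440.4 to 1536 CPM in mutants, and 11 of 14 were called lower. The sum of 10 pancreatic epithelium markers was 2418 to 2762 CPM in controls and 2113 to 2359 CPM in mutants, with 3 of 10 called lower. The epithelium and mesenchyme markers showed the labelled tissue to hold pancreatic epithelium and mesenchyme. Over all genes, 4.28% were called lower and 3.67% higher. Of the other lists, 6 of 10 neural and 4 of 7 hepatocyte markers were called lower. Called higher were 4 of 9 erythroid, 2 of 8 acinar and 1 of 6 mesothelium markers. The part of these shifts in the members' differences was not tested.

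Muscle markers marked 1 pool in each group. Their sum reached 290.2 CPM in mutant pool 2 and 95.02 CPM in control pool 2, while the remaining pools held 68.3 to 86.2 CPM. Myh3, the embryonic myosin heavy chain, had 84.4 CPM in mutant pool 2 and 10.3 CPM in control pool 2, with 0.418 to 3.52 CPM elsewhere. None of the 7 muscle markers was called by edgeR, DESeq2 or limma voom, and 1 had an unadjusted edgeR p under 0.05. Without these 2 pools, Plagl1 was called (0.36, edgeR adjusted p = 0.0363), Dlk1 at 0.23 and Mest at 0.17 were not, and 2.80% of all genes were called higher.

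**Figure D4:**
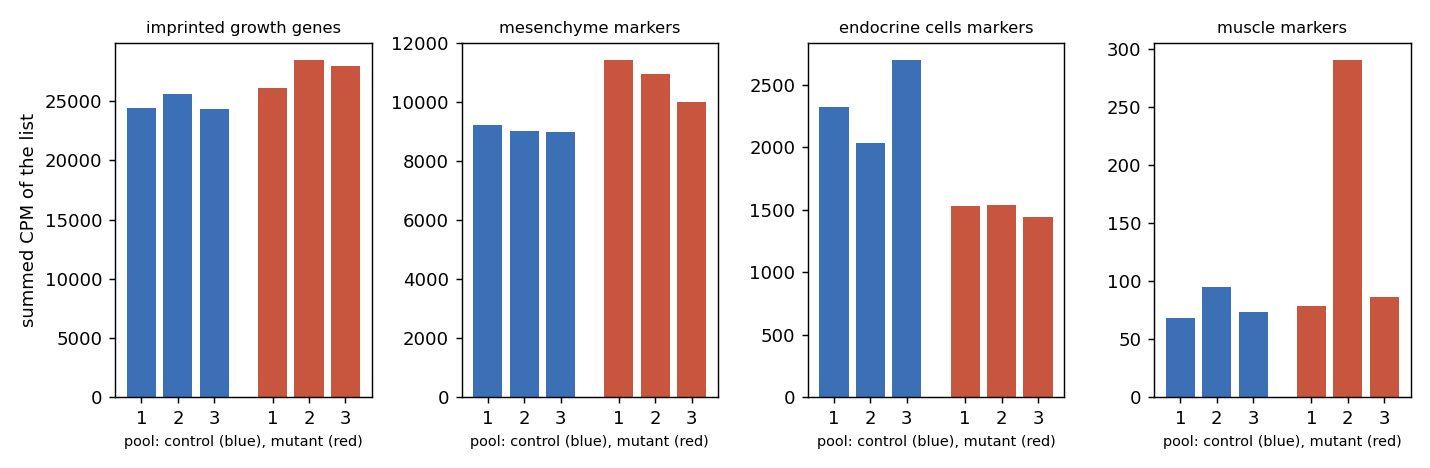
Summed CPM per pool of the 10 imprinted growth genes and of mesenchyme, endocrine and muscle markers, with control pools 1 to 3 in blue and mutant pools 1 to 3 in red. The growth genes and mesenchyme markers are higher and the endocrine markers lower in every mutant pool, and the muscle sum of 290.2 CPM stands out in mutant pool 2.

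The neighbours of the members in their imprinted domains were spread to both sides of 0. Of 24 neighbours, 0 were called higher and 2 lower, against 3.67% and 4.28% of all genes. Their median log2 fold change was 0.02, and 13 were above 0. At an unadjusted edgeR p under 0.05 there were 3 higher and 6 lower, where all genes gave 10.9% and 10.2%. DESeq2 called 1 higher and 1 lower, and limma voom 0 higher and 1 lower.

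The called neighbours were 2 genes of low level. Ins2, an insulin gene 100.5 kb from H19, stood at 8.41 ± 4.43 CPM in controls and 2.91 ± 0.526 in mutants (n = 3 each) and fell by 1.53 on the log2 scale (SE 0.352, edgeR adjusted p = 0.0316). Ins2 has a close copy, Ins1, with which reads may be exchanged, and it is an endocrine gene. Ascl2, a transcription factor of the placenta and of stem cells near Cdkn1c, went from 1.91 ± 0.344 to 0.807 ± 0.292 CPM and fell by 1.23 (SE 0.304, edgeR adjusted p = 0.0422). Ins2 kept its call in 2 of the 6 fits without 1 pool, and Ascl2 in 2.

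The most abundant of the uncalled neighbours were next to several members. Rian, a noncoding RNA downstream of Meg3, had 649, 708 and 661 CPM in controls and 654, 805 and 842 CPM in mutants. Its log2 fold change was 0.19 (edgeR adjusted p = 0.272), and its groups overlapped. Zim1, beside Peg3, was at 0.14 (adjusted p = 0.263). Phactr2, beside Plagl1, was at 0.21 (adjusted p = 0.105) with no overlap of its groups. Cd81 and Nap1l4, in the domain of Cdkn1c, were at 0.07 and -0.02, with adjusted p of 0.378 and 0.849.

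**Figure D5:**
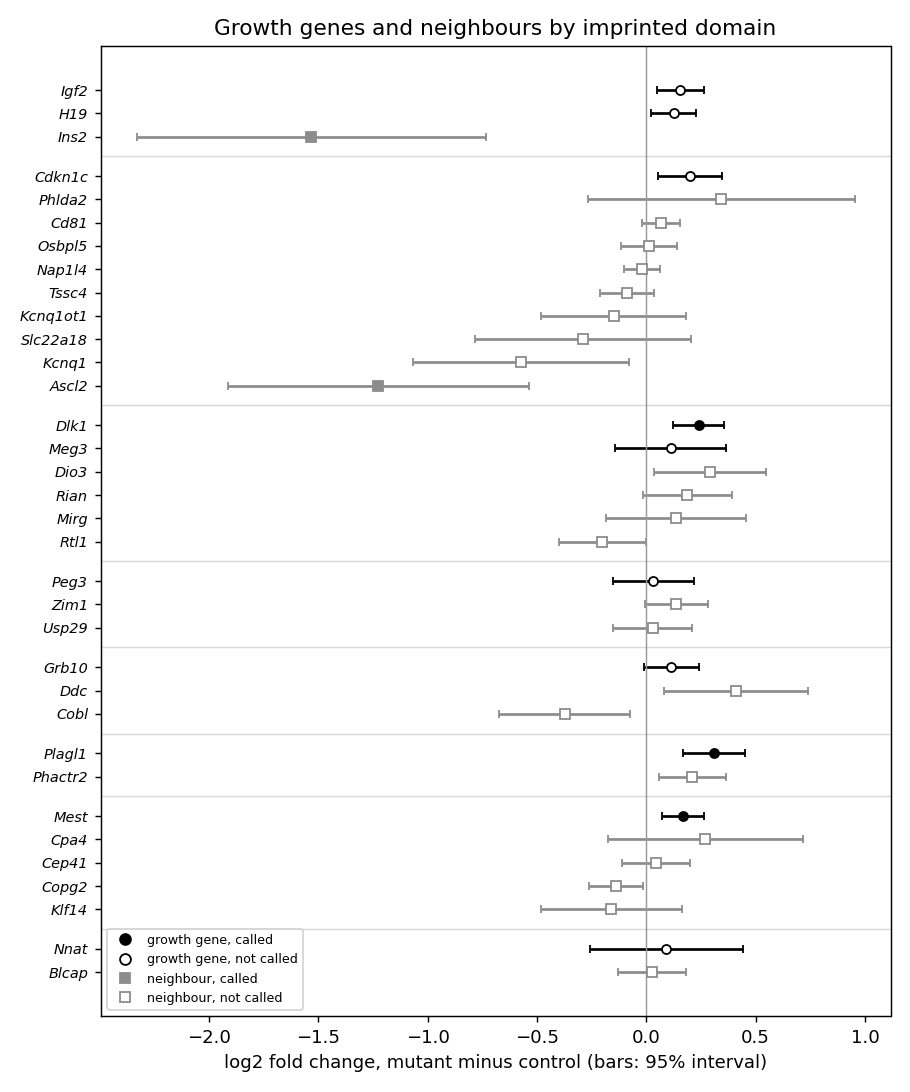
Log2 fold change, mutant minus control, with 95% intervals for the 10 growth genes (black circles) and 24 neighbours (grey squares), separated by imprinted domain. Filled symbols have an edgeR adjusted p under 0.05. The growth genes lie between 0.03 and 0.31, while the neighbours lie on both sides of 0, down to -1.53 for Ins2.

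Imprinted genes of other domains likewise had called members in both directions. Of 35 tested, 2 were called higher and 2 lower, against 3.67% and 4.28% of all genes. The median log2 fold change was 0.01. Igf2r, the maternally expressed receptor that takes up and clears Igf2, had 901, 955 and 850.3 CPM in controls and 1069, 1124 and 1105 CPM in mutants. It rose by 0.29 (SE 0.0541, edgeR adjusted p = 0.0137). Asb4, a subunit of ubiquitin ligase complexes, rose by 0.25 from 65.2 ± 3.72 to 77.3 ± 3.07 CPM (SE 0.0578, edgeR adjusted p = 0.0344).

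Peg10, a paternally expressed gene derived from a retrotransposon, was called in the direction opposite to Plagl1, Dlk1 and Mest. It had 1268, 1237 and 1331 CPM in controls and 1052, 1085 and 1112 CPM in mutants, with no overlap. Peg10 fell by 0.24 (SE 0.0486, edgeR adjusted p = 0.0186). Slc22a2, an organic cation transporter, had 16, 10 and 19 reads in controls and 3, 1 and 5 in mutants, with a log2 fold change of -2.28 (edgeR adjusted p = 0.0274). Of the 6 fits without 1 pool, Peg10 and Slc22a2 were called in 2 each and Asb4 in 1, with adjusted p up to 0.0936, 0.0899 and 0.122. Igf2r was called in 3 of the 6. Among the abundant uncalled genes, Gnas was at -0.08 (adjusted p = 0.319), Slc38a4 at -0.12 (0.179), Ube3a at 0.05 (0.554), H13 at 0.08 (0.314) and Ppp1r9a at -0.09 (0.273).

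Genes of the IGF pathway, through which Igf2 acts, gave 3 called higher and 2 lower of 21 tested. All genes gave 3.67% higher and 4.28% lower. The median log2 fold change of the 21 was 0.12. The binding proteins hold IGF ligands outside the cell. Igfbp2 had 60.4, 78.7 and 56.7 CPM in controls and 111, 113 and 107 CPM in mutants, with no overlap. It rose by 0.76 (SE 0.106, edgeR adjusted p = 0.0035). Igfbp3 rose by 0.38 from 259 ± 27.0 to 338 ± 14.4 CPM (SE 0.0717, edgeR adjusted p = 0.0131), and Igf2r was the third.

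Grb14, an adaptor of the same family as Grb10, fell. It had 20.8, 18.6 and 18.6 CPM in controls and 10.997, 9.01 and 8.63 CPM in mutants, a log2 fold change of -1.02 (SE 0.113, edgeR adjusted p = 0.0012). Igfbp1 had 24, 17 and 14 reads in controls and 2, 6 and 2 in mutants, with a log2 fold change of -2.42 (edgeR adjusted p = 0.0162). Igfbp2 and Grb14 were called in all 17 alternative fits. Igfbp3 lost its call without control pool 1 or mutant pool 2, and Igf2r without control pool 1, mutant pool 2 or mutant pool 3. Igfbp1 lost it without control pool 1, mutant pool 1, mutant pool 3 or the 2 pools nearly devoid of Xist.

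The receptor and the other ligand were not called. Igf1, the ligand that dominates after birth, had 399, 333 and 321 CPM in controls and 421, 355 and 298 CPM in mutants, with a log2 fold change of 0.03 (SE 0.122, edgeR adjusted p = 0.937). Igf1r, the signalling receptor for both ligands, was at 0.18 (SE 0.0639, adjusted p = 0.136). Igfbp5 was at 0.31 (adjusted p = 0.0916), Igfbp4 at 0.13 (0.244) and the RNA-binding protein gene Igf2bp2 at 0.04 (0.705).

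Among the cyclin-dependent kinase inhibitors related to Cdkn1c, 4 were tested and 1 was called lower, against 4.28% of all genes. Cdkn1a, which encodes p21, had 65.5, 59.2 and 66.8 CPM in controls and 49.6, 52.9 and 47.6 CPM in mutants. It fell by 0.35 (SE 0.0655, edgeR adjusted p = 0.0129), in the direction opposite to the values of Cdkn1c. Cdkn1a lost its call without control pool 1, mutant pool 3 or the 2 pools nearly devoid of Xist. Cdkn1b, which encodes p27, was at -0.04 (adjusted p = 0.719), Cdkn2d at 0.22 (0.198) and Cdkn2c at 0.03 (0.968).

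Genes that keep or read imprinting marks gave 0 calls of 9 tested by edgeR and limma voom, and 0 of 10 tested by DESeq2. 1 of the 9, Dnmt3b, had an unadjusted edgeR p under 0.05. The edgeR log2 fold changes lay between -0.03 and 0.18. Dnmt1, the maintenance methyltransferase, had 412 ± 18.7 CPM in controls, against 413 ± 12.9 CPM in mutants. The values were -0.03 for Trim28 (adjusted p = 0.826), 0.04 for Dnmt3a (0.732), -0.02 for Zfp445 (0.784) and 0.00 for Uhrf1 (0.981).

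For each called member, the 2 genes with the most similar pattern over the 6 libraries were found among 11132 genes with a mean of at least 3 on the log2 CPM scale. Likeness was the root mean square difference of centred log2 CPM, and it describes these libraries. For Plagl1 these were Pdgfc (0.0226), a growth factor gene, and Chst15 (0.0235). Dlk1 was nearest to Specc1 (0.0237) and Alg9 (0.0246). Mest was nearest to Rab23 (0.0149) and Chd1 (0.0182).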

How the data were processed

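The authors deposited whole-number read counts per gene symbol for 6 mRNA libraries, not normalized. The submitters' processing notes, used as labels, name cutadapt 1.13, STAR, HTSeq 0.6.1p1 and DESeq2, and the build mm10. What each did, which STAR version and annotation were used, whether counting used strand and how multiply mapped reads were handled is not given in sources used here. Reads of overlapping genes on opposite strands, or of close copies, may therefore be exchanged. Per the labels' protocols RNA was extracted with Trizol, while the series' design text names a column kit. No separate batch is named.

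Genes were kept by filterByExpr (minimum count 10), scaled by TMM and fitted with edgeR 4.0.16 in R 4.3.3 with genotype as the only term. The quasi-likelihood F test was Benjamini-Hochberg adjusted over 14687 genes, with a threshold of 0.05. An SE is the absolute coefficient over the root of F, and 95% intervals use the fit's degrees of freedom. The test was tested on simulated data. CPM is counts over the TMM-scaled total. The ratios within a library used reads and a two-sided exact permutation test.

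Alternatives were DESeq2 1.42.0, limma 3.58.1 voom, edgeR with robust estimation, DESeq2 size factors, upper-quartile or total-count scaling, no filter or a filter of 1 CPM in 3 libraries, the replicate number as a block, and each pool left out. The fit without the 2 pools nearly devoid of Xist was planned, and the fit without control pool 2 and mutant pool 2 was chosen after seeing the data.

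Members and lists were chosen with earlier results of these data known. Named genes were all members, every called gene and the 5 most abundant uncalled genes of each list of imprinted, IGF, inhibitor and regulator genes. Also named were the 2 most similar genes of each called member, Prox1, Xist and Ddx3y. The same rule for marker lists was given as counts and sums with examples chosen after their values were seen. Listed symbols matched directly, except Cep41, listed as Tsga14. Positions are from GENCODE M21 on GRCm38.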

Additional observations from a re-analysis of the deposited data

How the results depend on the processing

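Precision was limited by 3 pools a group and by the spread between pools, most for Nnat, Meg3 and Peg3, and counting error was small for all members. Over the fits without 1 pool, genes called higher ranged from 282 to 696 and lower from 343 to 725, and members called higher from 0 to 3. Neighbours ranged from 0 to 1 higher and 0 to 3 lower, imprinted genes of other domains from 0 to 2 in each direction, IGF genes from 1 to 5 higher and 1 to 2 lower, and kinase inhibitors from 0 to 1 lower. The cause of these changes was not tested.

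The log2 fold changes over the same 6 fits ran from 0.13 to 0.18 for Igf2, 0.10 to 0.15 for H19, 0.21 to 0.27 for Dlk1, 0.01 to 0.22 for Meg3, -0.020 to 0.11 for Peg3, 0.15 to 0.26 for Cdkn1c, 0.08 to 0.16 for Grb10, 0.26 to 0.36 for Plagl1, 0.15 to 0.18 for Mest and -0.045 to 0.26 for Nnat. Peg3 and Nnat thus turned direction, Peg3 without control pool 1, control pool 3 or mutant pool 3 and Nnat without control pool 1 or mutant pool 3. The other 8 members stayed above 0 in all 17 alternatives. The group difference in the log2 ratio of Igf2 to H19 ranged from -0.016 to 0.074, below 0 without control pool 3. For Dlk1 to Meg3 this difference ranged from 0.04 to 0.21. Uncalled listed genes that changed sign ranged from -0.10 to 0.14 for Igf1, -0.30 to 0.22 for Cdkn2c, -0.064 to 0.0059 for Trim28, -0.0038 to 0.070 for Dnmt3a, -0.031 to 0.032 for Dnmt1 and -0.0080 to 0.0024 for Uhrf1.

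Without the 2 pools nearly devoid of Xist, 315 genes were called higher and 350 lower, neighbours 2 higher, imprinted genes of other domains 0 lower, IGF genes 1 lower and kinase inhibitors 0 lower. Cdkn1c was called there at 0.25, Mest was not at 0.16 (edgeR adjusted p = 0.0986), and Igf1 was at -0.17, Cdkn2c at -0.15, Dnmt3a at -0.0041, Dnmt1 at -0.013 and Uhrf1 at 0.0029. Without the 2 pools highest in muscle markers, 1 member was called, 1 imprinted gene of other domains higher and 0 lower, and 5 IGF genes higher. Dlk1 at 0.23 (edgeR adjusted p = 0.109) and Mest at 0.17 (adjusted p = 0.202) were not called there, and Igf1 was at -0.0031.

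DESeq2 called 5 members, with Igf2 at 0.16 and Cdkn1c at 0.20, 1 neighbour higher and 1 lower, and 5 IGF genes higher. With limma voom, Igf2 was called at 0.16, and 1 neighbour lower. Under total-count scaling Mest was not called at 0.14 (edgeR adjusted p = 0.0836), 1 imprinted gene of other domains was called higher and Dnmt1 was at -0.025. Without a low-count filter Mest was not called at 0.17 (adjusted p = 0.0708) and Uhrf1 was at 0.0018. With at least 1 CPM in 3 libraries, 1 imprinted gene of other domains and 1 IGF gene were called lower, since Slc22a2 and Igfbp1 were not tested, and Dnmt1 was at -0.0037.

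Same-numbered pools correlated across genes at 0.138, 0.108 and -0.0649 in their deviations from the group means, so the numbers were not taken to pair the pools. With the replicate number as a block, 576 genes were called higher and 562 lower, 2 members were called, Mest was not at 0.17 (edgeR adjusted p = 0.114), and 1 neighbour was called lower. Pairing by number cannot change the mean differences of the log2 ratios, 0.03 for Igf2 to H19 and 0.13 for Dlk1 to Meg3. These differences therefore say nothing about the block.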
